A study of Homo sapiens with 5 samples.

Results

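Divergent protein-coding promoters are stretches of DNA from which 2 protein-coding genes are transcribed in opposite directions, away from each other. They were examined here among 20087 regions (peaks) enriched for histone H3 acetylated at lysine 27 (H3K27ac) in a human colorectal carcinoma cell line. A peak was taken as a divergent promoter when its centre lay within 1000 bp of the start of a gene on the plus strand and within 1000 bp of the start of another gene on the minus strand, with the minus-strand start at the lower coordinate. Starts were the 5′ ends of the gene records of GENCODE release 44 on GRCh38, and the H3K27ac values played no part in the choice. Of the 20087 peaks, 731 met this rule, and they belonged to 718 gene pairs with 1434 genes. They made up 731 of the 8741 peaks within 1000 bp of a protein-coding start. The other 8010 promoter peaks consisted of 6303 next to 1 coding gene, 1038 next to a coding gene with a divergent long non-coding RNA (lncRNA), 431 next to overlapping genes on opposite strands and 238 next to several genes on the same strand.

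The cells were HCT116 CMV-osTIR1 RAD21-mAC, an HCT116 derivative that expresses the plant auxin receptor osTIR1 from the CMV promoter and carries a degron tag on the cohesin subunit RAD21. All of them received 0.1% DMSO for 6 h, and the IFN-β group (2 libraries) was then given interferon-β at 1000 unit/ml for 1 h while the control group (2 libraries) received nothing further. The sample titles place the IFN-β libraries at 60 min and the control libraries at 0 min, so that 1 h of culture cannot be told apart from IFN-β. Each H3K27ac library held between 5.5 M and 8.6 M reads from 500000 cells fixed in 1% formaldehyde, and 1 input library of 16 M reads served as background for the peak calls. Of 8 epithelial and colon marker genes, 6 had a peak within 1000 bp of their start, with control values between 4.48 and 6.67 on the log2 scale used below, and none of 5 markers of leukocytes, fibroblasts, endothelium and liver had one.

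In a divergent pair, a single nucleosome-poor stretch between the starts carries the core promoters of both genes, and the acetylated nucleosomes that mark an active promoter flank that stretch on either side. Housekeeping genes, for instance those for DNA repair or mitochondrial proteins, are often arranged in this way in mammals, and divergent promoters are usually rich in CpG dinucleotides and poor in TATA boxes. Type I interferons such as IFN-β act through the transcription factor complex ISGF3, which binds the interferon-stimulated response element (ISRE) near its target genes.

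The stretches between both starts are shown here for pairs on which the results below turn, read from the plus strand of GRCh38, with matches to the motifs defined below in capitals. In the first group are the pairs with an interferon-stimulated gene and a spacing small enough to print. Both capitalised stretches of the pair of IFIH1, the double-stranded RNA sensor MDA5, match the wider ISRE core GAAANNGAA.
STOML1/PML, chr15:73994623-73994672: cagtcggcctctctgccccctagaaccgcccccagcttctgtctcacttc
IFIH1/GCA, chr2:162318685-162318839: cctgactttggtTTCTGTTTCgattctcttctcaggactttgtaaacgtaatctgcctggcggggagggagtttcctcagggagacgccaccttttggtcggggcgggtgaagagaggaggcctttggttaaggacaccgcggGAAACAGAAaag
PATL2/B2M, chr15:44711324-44711357: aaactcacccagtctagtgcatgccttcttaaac
Between LIPA and IFIT5 lay 10 bases, chr10:89414558-89414567. For STOML1/PML, LIPA/IFIT5 and PATL2/B2M, a match outside or across the ends of that stretch is given with 10 bases on either side, and capitals mark the 9 letters of the core.
STOML1/PML, chr15:73994244-73994272: gagctatcttTTCTGTTTCaagtgtcccc
LIPA/IFIT5, chr10:89414555-89414583: tttcttaagtTTCAGTTTCtgagcgctcg
PATL2/B2M, chr15:44711369-44711397: ctaagaaaagGAAACTGAAaacgggaaag

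The second group shows what lies between the starts in pairs without an interferon-stimulated gene. The first 5 were chosen because they hold the ETS, GC box, Kaiso, CCAAT box, NRF1 or E-box matches counted below, and the sixth, a pair of histone genes, for its TATA box and CCAAT box matches.
TRIM66/RPL27A, chr11:8682695-8682787, with an ETS, a GC box and a Kaiso match in this order: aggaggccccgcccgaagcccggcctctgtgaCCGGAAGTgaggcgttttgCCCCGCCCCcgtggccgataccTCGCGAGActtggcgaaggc
C11orf68/DRAP1, chr11:65919063-65919273, with 4 GC box matches: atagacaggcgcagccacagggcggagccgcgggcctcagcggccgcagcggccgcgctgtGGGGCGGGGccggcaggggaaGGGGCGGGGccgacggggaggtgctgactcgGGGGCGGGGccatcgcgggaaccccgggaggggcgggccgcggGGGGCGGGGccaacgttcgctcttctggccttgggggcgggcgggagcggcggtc
SKA3/MRPL57, chr13:21176553-21176657, with 2 overlapping Kaiso matches: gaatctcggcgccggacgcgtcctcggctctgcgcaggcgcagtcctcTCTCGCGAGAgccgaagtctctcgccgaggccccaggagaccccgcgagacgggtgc
NAT9/TMEM104, chr17:74776368-74776498, with a CCAAT box and an NRF1 match: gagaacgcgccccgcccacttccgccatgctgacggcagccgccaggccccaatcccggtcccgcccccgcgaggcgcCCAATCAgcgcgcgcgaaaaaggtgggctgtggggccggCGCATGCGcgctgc
TMEM258/FEN1, chr11:61792803-61792910, with an E-box match: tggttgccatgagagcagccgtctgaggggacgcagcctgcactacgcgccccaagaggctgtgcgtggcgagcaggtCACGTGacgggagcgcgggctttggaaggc
H2AC17/H2BC17, chr6:27893186-27893424, with a TATA box match, a wider ISRE core and 2 CCAAT box matches in this order: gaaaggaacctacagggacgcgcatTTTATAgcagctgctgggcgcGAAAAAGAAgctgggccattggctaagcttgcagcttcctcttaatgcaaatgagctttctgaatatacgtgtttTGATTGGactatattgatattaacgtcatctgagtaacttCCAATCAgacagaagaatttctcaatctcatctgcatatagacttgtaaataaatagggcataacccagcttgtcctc

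The starts of a pair lay between 1 and 1238 bp apart, with a median of 130 bp and quartiles of 70.0 and 236.5 bp. A spacing of at most 200 bp was found at 499 peaks (68.3%), one of more than 200 and up to 500 bp at 182, one of more than 500 and up to 1000 bp at 43, and a larger one at 7. The stretch between the starts lay wholly inside the peak at 581 members (79.5%), partly inside at 114 (15.6%) and outside at 34 (4.65%). The remaining 2 had adjacent starts with no base between them. H2BC11/H2AC11, with a spacing of 248 bp, is an example of a peak that began past the stretch between the starts.

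Peak centres lay inside a gene of the pair more often than between its starts, whose median spacing was 130 bp. The shares are not scaled to the length of each part. The centre lay inside the minus-strand gene at 283 peaks (38.7%), inside the plus-strand gene at 280 (38.3%) and between both starts at 168 (23.0%). Its median distance from the midpoint of the starts was 224 bp, with quartiles of 97.5 and 354 bp. While 545 centres (74.6%) lay more than 100 bp away, 114 (15.6%) lay within 50 bp of the midpoint. At the 6303 promoters with 1 coding gene, the centre lay a median of 206 bp downstream of the start, and 4733 (75.1%) of them were downstream. The side made little difference to the level, since the control medians were 5.81 on the minus-strand side, 5.77 on the plus-strand side and 5.84 between the starts. At 13 pairs there were 2 peaks, 1 on either side of the pair in each case. At these pairs the control values of both peaks differed by between 0.05 and 2.78, with a median of 0.42, while the difference between IFN-β and control varied by between 0.02 and 0.40. TBC1D10B/MYL11 had the widest gap, with control values of 6.28 and 3.50 at its 2 peaks.

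**Figure D1:**
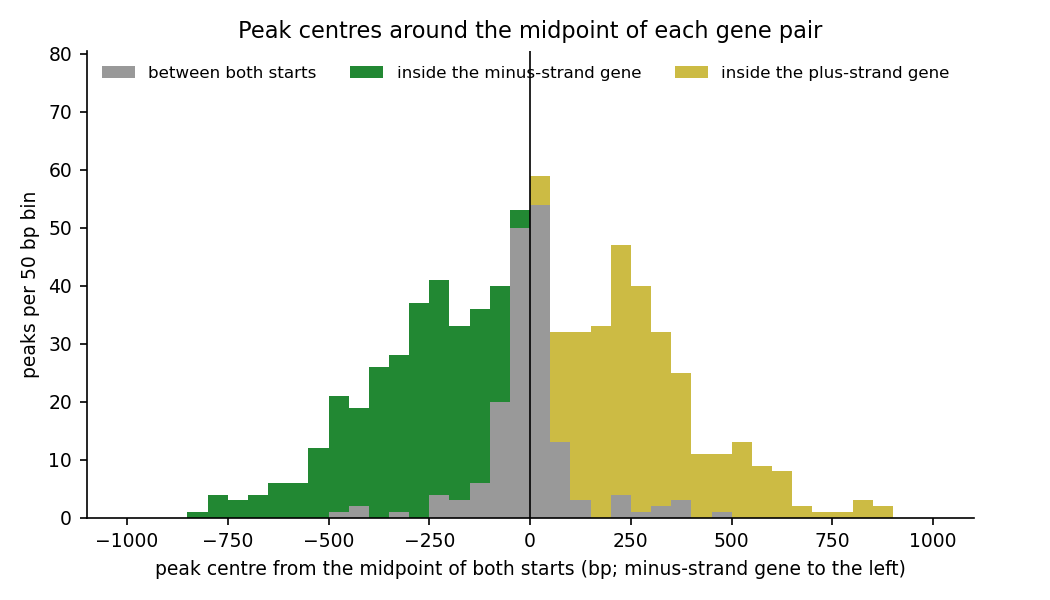
Number of peaks (y axis) by distance of the peak centre from the midpoint of both starts in bp (x axis, 50 bp bins, minus-strand gene to the left) for the 731 divergent promoter peaks. Grey bars are centres between both starts (168), green bars centres inside the minus-strand gene (283) and yellow bars centres inside the plus-strand gene (280).

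The signal of a peak is the authors' mean of normalized reads over the 2 libraries of a group, on a log2 scale. No value per library was used, so none of the differences below has a replicate check, no test was run, and medians, quartiles and counts describe the spread over peaks only. The median signal of divergent promoters was higher than that of other promoters in both groups. Their median control signal was 5.80 (quartiles 5.24 and 6.30), against 5.55 (4.78 and 6.19) at other promoters and 5.04 over all peaks. After IFN-β the medians were 5.05 at divergent promoters, 4.80 at other promoters and 4.39 over all peaks. The medians of both groups thus stood 0.25 higher at divergent promoters, and the gap was wider at the lower end of the range. The 5th percentile of the control signal was 4.05 at divergent and 3.40 at other promoters, while the 95th percentiles were 6.92 and 6.96 and the highest values 7.80 and 8.20. A mean signal of at least 5 was reached by 531 members (72.6%) and by 4725 other promoters (59.0%), and among these peaks the control medians were 6.08 and 6.06.

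Among the other kinds of promoter, those with overlapping opposite genes had a control median of 5.87, those with a divergent lncRNA 5.72, those with 1 coding gene 5.51 and those with several same-strand genes 5.50. The divergent promoters thus lay between those with overlapping genes and those with a divergent lncRNA. At peaks of exactly 1000 bp the median control signal was 0.31 higher at divergent than at other promoters. Peaks wider than 1000 bp made up 116 of the members (15.9%) and 727 of the other promoters (9.08%). The control signal went with the spacing of the starts, with medians of 5.68 up to 200 bp, 5.89 up to 500 bp, 6.16 up to 1000 bp and 6.62 beyond, the last over 7 peaks. Peaks wider than 1000 bp made up 13.4%, 22.5%, 16.3% and 14.3% of these 4 groups in the same order. Whether peak width bears on the control medians was not tested. At the edge of the rule, 17 members whose farther start lay between 900 and 1000 bp from the centre had medians of 6.02 in the control and 5.45 after IFN-β, and 13 peaks just outside, between 1000 and 1100 bp, had 5.82 and 5.09.

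**Figure D2:**
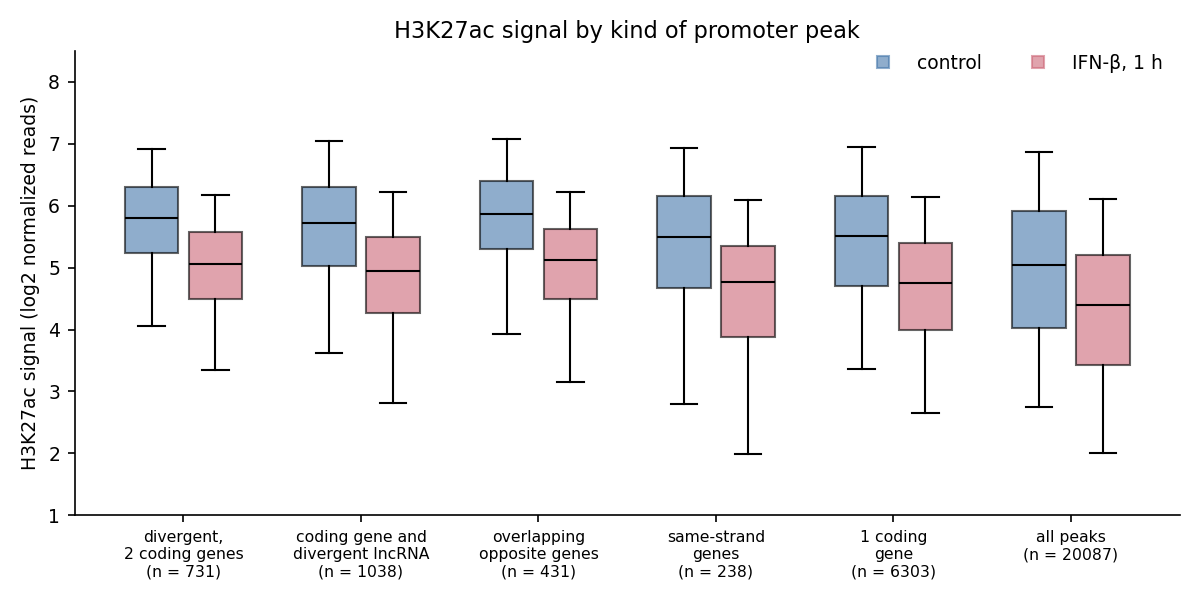
H3K27ac signal in log2 normalized reads (y axis) by kind of promoter peak (x axis) in control (blue) and after 1 h of IFN-β (red), with the median as a line, the quartiles as a box and the 5th and 95th percentiles as whiskers, all over peaks. Divergent promoters have control and IFN-β medians of 5.80 and 5.05, against 5.51 and 4.75 for promoters with 1 coding gene.

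The members with the highest control signal were the promoters of ANKRD11, a chromatin regulator, and SPG7, a mitochondrial protease. Their shared peak had 7.80 in the control and 6.69 after IFN-β. PSMA7/SS18L1, with the gene for a 20S proteasome subunit, had 7.63 and 6.60. SNX5/MGME1, with genes for a sorting nexin and a mitochondrial exonuclease, had 7.63 and 6.52, and OXLD1/CCDC137 had 7.62 and 6.58. C11orf68/DRAP1, with the gene for a transcriptional corepressor, had 7.41 and 6.86. These 5 were lower after IFN-β, by between 0.55 and 1.11. At the other end, BOLA2/SLX1B, CSAG2/MAGEA2B and MAGEA2/CSAG3 stood at the lowest value of the table in both groups, -0.17 in the control and -0.59 after IFN-β. The same values stood at 460 of all peaks, 69 of them other promoters, so the difference of -0.42 is that of the floor of the table. Each of the genes in these pairs has a near-identical copy, so their values are uncertain.

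IFN-β minus control was below 0 at nearly all members, as it was over the whole table. The median was -0.73 (1.66-fold lower after IFN-β) at divergent promoters, -0.76 at other promoters and -0.69 over all peaks. A common shift of this size cannot be told apart from the normalization, since the summed normalized reads of all peaks were 540427 in the IFN-β group and 876825 in the control group. The divergent promoters held 4.91% of the former and 5.08% of the latter. More than 2-fold lower values were found at 105 members (14.4%), against 18.6% of other promoters and 17.4% of all peaks. Values above 0 were found at 7 members (0.958%), against 2.2% of other promoters and 5.93% of all peaks. By kind of other promoter, that share was 0.928% with overlapping opposite genes, 1.16% with a divergent lncRNA, 1.26% with same-strand genes and 2.49% with 1 coding gene. The spread over peaks was smaller at divergent than at other promoters, with an SD of 0.273 against 0.351. By kind, the SD was 0.283 with overlapping opposite genes, 0.321 with a divergent lncRNA, 0.329 with same-strand genes and 0.360 with 1 coding gene. Most of the gap between divergent and other promoters was absent among peaks with a mean signal of at least 5, where the SDs were 0.242 and 0.252. In these peaks 13.0% of members, 15.8% of other promoters and 13.4% of all peaks were more than 2-fold lower. Above 0 were 4 of 531 members (0.753%), 28 of 4725 other promoters (0.593%) and 1.37% of all peaks. The smaller share of members above 0 was thus not seen in them. That mean covers both groups, so a peak can reach it through its IFN-β value. STOML1/PML, 1 of the 4 members above 0, did so, with 4.39 in the control and 5.54 after IFN-β.

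Of the 7 members above 0, 4 had a gene from a list of 101 interferon-stimulated genes. The other 3 had a control signal of 2.92 (LYPD5/ZNF283), 4.02 (CYP39A1/SLC25A27) and 2.78 (RSPH14/RAB36), with values of 3.07, 4.06 and 2.79 after IFN-β, so that they exceeded the control by at most 0.15. Without the 5 pairs that hold a listed interferon-stimulated gene, 3 of 726 members were above 0.

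The member with the largest value of IFN-β minus control was the promoter of PML, which builds the nuclear bodies that bear its name, and STOML1, a stomatin-like membrane protein. Its 1700 bp peak, chr15:73993864-73995564, had 4.39 in the control and 5.54 after IFN-β, a difference of 1.15 (2.22-fold higher). Relative to the median of all peaks the difference was 1.84. The starts lay 51 bp apart. The canonical start of STOML1 lay elsewhere, and the peak next to it, chr15:73991490-73992490, went the other way, with 3.23 in the control and 1.56 after IFN-β.

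LIPA encodes lysosomal acid lipase and IFIT5 an RNA-binding protein of the interferon-induced IFIT family. Their peak, chr10:89414445-89415445, had 5.58 in the control and 5.97 after IFN-β, a difference of 0.39 (1.31-fold higher), over starts 11 bp apart. The canonical start of LIPA lay outside this peak, and the peak there, chr10:89251215-89252215, had 3.81 and 3.62. IFIH1 shares its promoter with GCA, which encodes the calcium-binding protein grancalcin. At that peak, chr2:162318171-162319171, the control value was 5.39 and the IFN-β value 5.64, a difference of 0.25 (1.19-fold higher). The peak at the canonical start of GCA, chr2:162344008-162345008, had 4.03 and 3.12. B2M encodes the light chain of MHC class I and PATL2 an RNA-binding protein of oocytes. Their peak, chr15:44711140-44712140, had 5.68 and 5.71, a difference of 0.03 that stood 0.72 above the median of all peaks.

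The fifth pair, HES4/ISG15, went with the other members. HES4 encodes a basic helix-loop-helix repressor and ISG15 a ubiquitin-like modifier. The peak, chr1:1000628-1001628, had 7.04 in the control and 6.51 after IFN-β, a difference of -0.53. The starts lay 966 bp apart, and the canonical start of ISG15 was 1013497, outside this peak. The peak over that start, chr1:1012765-1013765, which is not a member, had 5.28 in the control and 6.58 after IFN-β. In the 61 other promoter peaks with a listed interferon-stimulated gene, 31 were above 0, with medians of 5.14 in the control and 5.37 after IFN-β, and a median difference of 0.05. In the 5 members the median difference was 0.25, with 4 above 0.

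**Figure D3:**
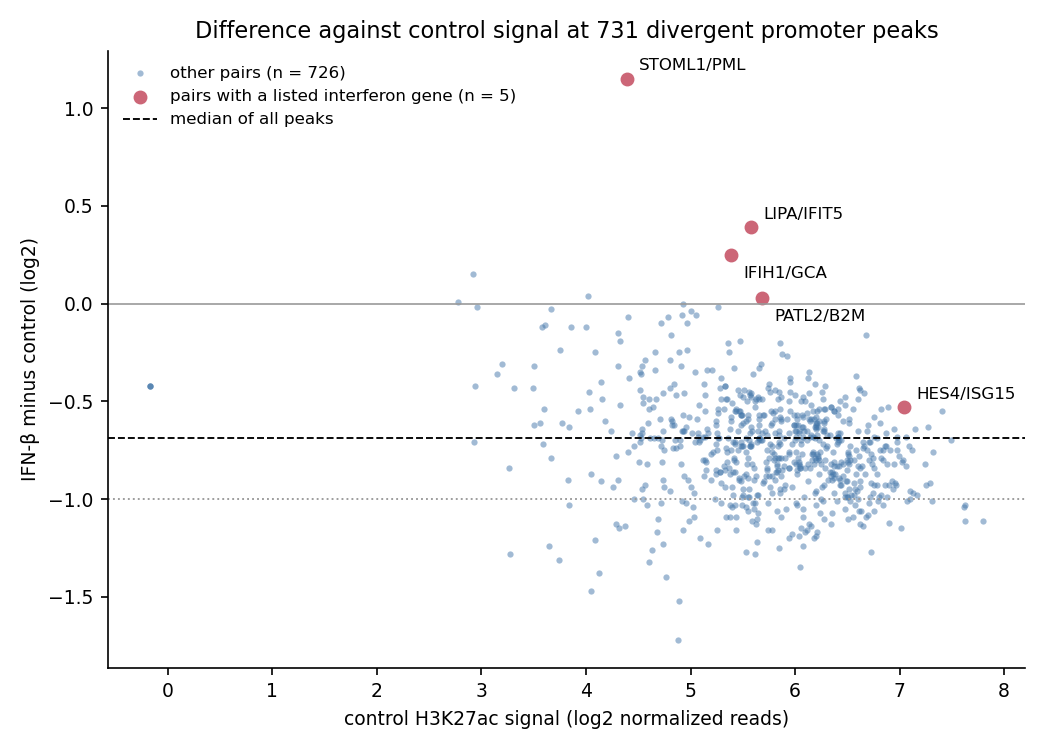
IFN-β minus control on the log2 scale (y axis) against control H3K27ac signal in log2 normalized reads (x axis) for each of the 731 divergent promoter peaks, with the 5 pairs that hold a listed interferon-stimulated gene in red. The dashed line is the median of all 20087 peaks (-0.69), the solid line is 0 and the dotted line is 2-fold lower, and STOML1/PML lies highest at 1.15.

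Which interferon-stimulated genes counted as divergent depended on the choice of start. When the starts of all protein-coding transcripts were used in place of the gene records, 10 peaks held a listed gene, 7 of them above 0. Among the added ones was PARP9/DTX3L, the genes for an ADP-ribosyltransferase and its partner ubiquitin ligase, with 5.52 in the control and 5.98 after IFN-β. CMPK2/RSAD2, whose second gene encodes the antiviral enzyme viperin, had 4.34 and 4.77. TAP1/PSMB9, with genes for a peptide transporter and an immunoproteasome subunit, had 5.34 and 5.59. PSME2/RNF31 and PARP10/GRINA, added as well, were lower by 0.48 and 0.78 on the log2 scale. With canonical starts, 4 peaks held a listed gene, of which PATL2/B2M was the one shared with the main rule, and 3 were above 0.

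Matches to the wider ISRE core lay within 500 bp of the peak centre at 4 of the 5 interferon pairs, against 21.8% of all members and 18.2% of other promoters. HES4/ISG15 had no match, and only IFIH1/GCA had matches within 250 bp of the centre. Within that distance 11.5% of all members and 8.35% of other promoters had a match. In STOML1/PML the match lay inside STOML1, 419 bp before the start of the PML gene record. In LIPA/IFIT5 there were 3 matches, of which 1 lay inside the first exon of the LIPA gene record, 1 across the LIPA start and 1 across the IFIT5 start, and in IFIH1/GCA 2 lay between the starts and 2 across the start of GCA. In PATL2/B2M the 2 matches overlapped each other inside the first exon of the B2M gene record, and that nearest to the canonical start lay 138 bp before it. The wider core was not among the planned motifs. The stricter core GAAANTGAA, which had been planned, was found at 2 of the 5 interferon pairs, LIPA/IFIT5 and PATL2/B2M. It was found at 36 members in all (4.92%) and at 3.67% of other promoters. Of the 159 members with a wider ISRE core, 5 were above 0 after IFN-β, where 7 of all 731 members (0.958%) were. Those 5 were the 4 interferon pairs and CYP39A1/SLC25A27, and the other 2 members above 0 had none. The median difference was -0.71 at members with a wider core and -0.73 at those without.

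Among members with a mean signal of at least 5, the highest values of IFN-β minus control after the interferon pairs were near 0. TRMT10A/MTTP, with genes for a tRNA methyltransferase and a lipid transfer protein, had 5.26 in the control and 5.24 after IFN-β. PUS7L/IRAK4, whose second gene encodes a kinase of Toll-like receptor and interleukin-1 signalling, had 5.05 and 4.99. The lowest value was at KIN/ATP5F1C, with the gene for the gamma subunit of ATP synthase, which had 6.05 and 4.70, a difference of -1.35. CEP89/FAAP24 had 5.62 and 4.34, FGD6/VEZT 5.53 and 4.26, and GDF5/CEP250 6.73 and 5.46. MAP4K1/EIF3K, with the gene for a subunit of initiation factor eIF3, had 5.85 and 4.60, and NAT9/TMEM104 had 6.08 and 4.84. None of these 6 pairs had a gene of the interferon list, which 5 of all 731 members had.

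Divergent promoters held 7.16% of the 20020 protein-coding gene names and 14.2% of the 10122 with a promoter peak. The shares were above this for most groups of housekeeping genes examined. Of genes with a promoter peak, 33.7% of the DNA repair and replication genes (35 genes) lay in a divergent pair, 33.3% of the histone genes (16), 31.0% of the RNA polymerase and Mediator subunits (18), 23.0% of the mitochondrial ribosomal protein genes (17), 21.8% of the chaperones (12), 21.3% of the splicing factors (16), 20.3% of the respiratory chain genes (15) and 18.6% of the cell cycle genes (24). The cytosolic ribosomal protein genes were close to the background at 15.3% (11), as were the proteasome genes at 14.3% (6). The shares were lower for C2H2 zinc finger genes at 8.62% (28), aminoacyl-tRNA synthetases at 8.57% (3) and the interferon-stimulated genes at 7.35% (5). The lists were made from gene names by pattern or by hand, and the patterns also took PSME3IP1 and CDC42SE1, which do not belong to the families.

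In the DNA repair and replication list, 36 peaks had a control median of 5.88 and a median difference of -0.72, close to the -0.73 of all members. TMEM258/FEN1, with the gene for the flap endonuclease of Okazaki fragment maturation, had 7.32 in the control and 6.56 after IFN-β. RECQL4/LRRC14, with the gene for a RecQ helicase, had 6.98 and 6.30. The lowest difference of any member was in this list, at NTHL1/TSC2, which had 4.88 and 3.16, a difference of -1.72, at a control signal below the median. More than 2-fold lower values were found at 9 of the 36 peaks (background 17.4% of all peaks), and none was above 0. Of the 69 other promoters of genes in this list, 12 were more than 2-fold lower, and their median difference was -0.83.

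The 8 histone peaks were each shared by an H2A and an H2B gene, so that both genes of every pair were in the list. They had the highest median control signal of the lists, 6.75, and lay between 6.08 and 7.07. The 32 other promoters of listed histone genes had a control median of 6.48. H2AC17/H2BC17 had 7.07 in the control and 6.06 after IFN-β, and H2BC11/H2AC11 6.98 and 6.27. The median difference of the 8 member peaks was -0.89, and 3 of the 8 were more than 2-fold lower, against 17.4% of all peaks and 14.4% of members. At the 32 other promoters of listed histone genes the median difference was -0.73, with 3 more than 2-fold lower. Spacing in the histone pairs ran from 170 to 251 bp. Histone genes of one kind are near-identical in their coding sequence, and how reads that match several of them were placed was not tested.

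The lists of ribosomal and respiratory genes are set beside the medians of all members, 5.80 in the control and -0.73 for the difference. The 11 cytosolic ribosomal protein peaks had a control median of 6.31 and a median difference of -0.71, with none more than 2-fold lower (17.4% of all peaks). The 61 other promoters of listed cytosolic ribosomal protein genes had 6.31 and -0.81, with 13 more than 2-fold lower. TRIM66/RPL27A had 7.13 and 6.16, and SLC18B1/RPS12 had 6.82 and 6.03. The 16 mitochondrial ribosomal protein peaks had 5.76 and -0.83, and the 15 respiratory chain peaks had 6.05 and -0.76. SKA3/MRPL57 had 6.94 and 5.99, and MRPL27/EME1 6.74 and 5.92. NDUFB1/CPSF2, with the gene for a complex I subunit, had 6.75 and 5.96, and LRRC41/UQCRH, with one for complex III, 6.72 and 6.01.

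Proteasome genes had the lowest median difference of the lists, -1.09 over 6 peaks, of which 4 were more than 2-fold lower, against 17.4% of all peaks and 14.4% of members. PSMD10/ATG4A had 4.74 in the control and 3.51 after IFN-β, and PSMA1/PDE3B had 5.09 and 3.89. PSMA2/MRPL32, a pair with a proteasome and a mitochondrial ribosomal gene, had 5.44 and 4.28. Other promoters of listed proteasome genes, 37 in number, had a median of -0.78, with 4 more than 2-fold lower. PSME3IP1/RSPRY1, which is in the list by its name only, had 6.02 and 5.17.

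The RNA polymerase and Mediator list and the splicing list had median differences close to the -0.73 of all members, and control medians above their 5.80. At other promoters of the same lists the control medians were 5.27 and 6.39. The 18 RNA polymerase and Mediator peaks had a control median of 6.13 and a median difference of -0.68, and PPP1R13L/POLR1G had 7.10 and 6.10. POLR2L/TSPAN4, with the gene for a small subunit of RNA polymerase II, had 6.87 and 6.14. The 18 splicing factor peaks had 6.25 and -0.74, and GUCD1/SNRPD3, with the gene for the spliceosomal core protein Sm D3, had 6.89 and 6.36. HNRNPDL/ENOPH1 had 6.88 and 5.89. The 23 cell cycle peaks had 6.21 and -0.77, with 6 more than 2-fold lower (17.4% of all peaks), beside 29 of 104 other promoters of listed cell cycle genes, and KIF24/NUDT2, with the gene for a centriolar kinesin, had 6.78 and 5.91. CDC42SE1/GABPB2 had 6.71 and 6.00. The 12 chaperone peaks had 6.09 and -0.70, and CORO7/DNAJA3 had 6.73 and 5.96. ATPSCKMT/CCT5, with the gene for a subunit of the cytosolic chaperonin, had 7.05 and 6.51. The 3 aminoacyl-tRNA synthetase peaks had 5.76 and -0.70, with 6.28 and 5.18 at LYRM4/FARS2 and 5.76 and 5.31 at SARS2/MRPS12, where both synthetases are mitochondrial. The 24 zinc finger peaks had a lower control median of 5.67 and a median difference of -0.76, and ZNF668/ZNF646, 1 of 4 pairs with a listed gene on both sides, had 6.84 and 6.04. LPXN/ZFP91-CNTF, whose second gene is a readthrough record, had 7.10 and 6.14. The 547 peaks with no gene of any list had a control median of 5.69 and a median difference of -0.73.

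**Figure D4:**
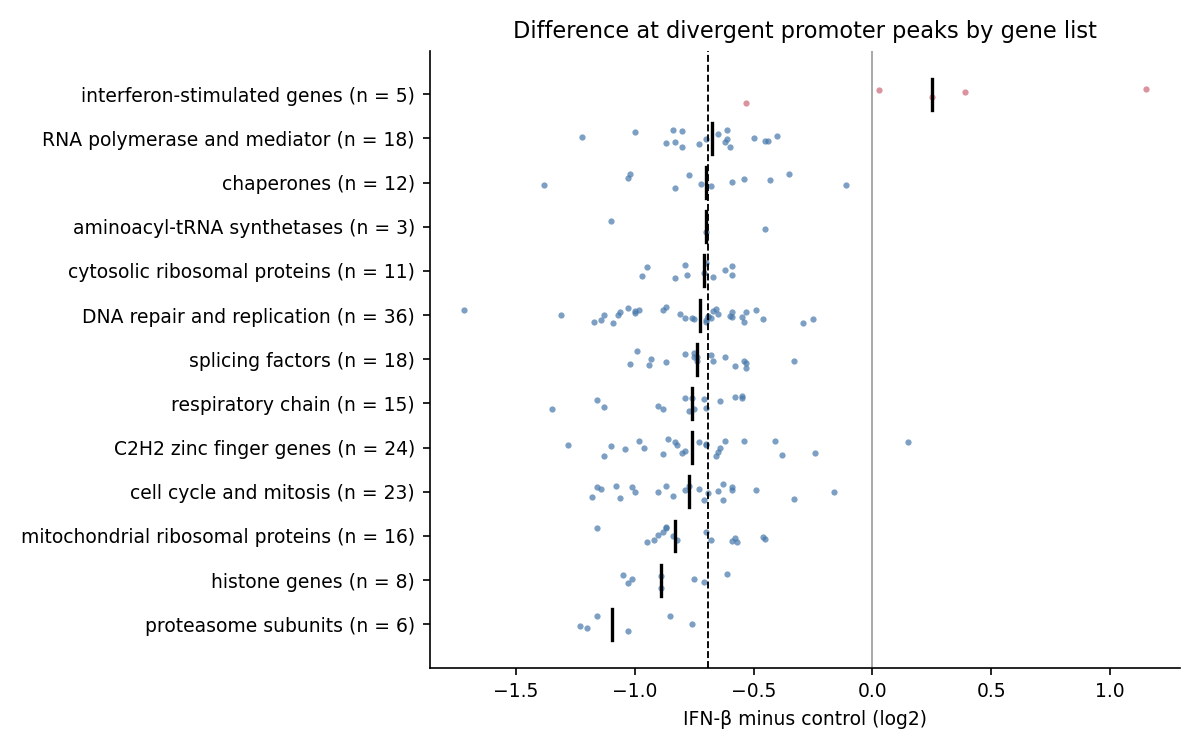
IFN-β minus control on the log2 scale (x axis) at divergent promoter peaks, by gene list (y axis), with 1 point for each peak and a black bar for the median of each list. The dashed line is the median of all 20087 peaks (-0.69), and the median of the interferon-stimulated genes (0.25, 5 peaks) lies to the right of the medians of the other lists, although HES4/ISG15 is at -0.53.

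Within 500 bp of the centre, the sequence of divergent promoters was less rich in G and C than that of other promoters, with a median GC content of 62.2% (quartiles 57.2 and 67.0) against 64.7% (58.9 and 70.3). Among the kinds of other promoter, the median was 62.3% with same-strand genes and 63.6% with overlapping opposite genes. It was 64.9% with 1 coding gene and 65.35% with a divergent lncRNA. The ratio of observed to expected CpG was 0.790 and 0.794. The stretch between both starts, 115.7 kb in all, had 64.2% GC, and the rest of the windows had 61.6%. Since GC content went with the signal, the comparison was repeated in 5 groups of promoters of like GC content, equal in size. The control median was higher at divergent promoters in each of the 5 groups, at 5.48 against 5.26 in the lowest, 5.85 against 5.45, 5.86 against 5.55, 6.10 against 5.72 and 6.01 against 5.80 in the highest. The median differences ran from -0.71 to -0.80 with rising GC content at divergent promoters and from -0.69 to -0.82 at others.

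Matches to 12 short motifs were counted on both strands within 500 bp of the centre, exactly as spelled here, with N for any base. The ETS motif CCGGAAGT was found at 135 members (18.5%) and 11.4% of other promoters (11.99% of all promoters), the widest gap in favour of the members. The CCAAT box CCAATCA was found at 116 members (15.9%) against 11.99% (12.3% of all), YY1 AAGATGGC at 96 (13.1%) against 9.76% (10.0%), and NRF1 CGCATGCG at 60 (8.21%) against 5.36% (5.59%). The Kaiso/ZBTB33 motif TCTCGCGA was found at 37 (5.06%) against 3.31% (3.45%), and ZNF143/THAP11 ACTACAATT at 14 (1.92%) against 0.961% (1.04%). In 4 of the 5 GC groups, each of these 6 was more common at divergent promoters. The GC box GGGGCGGGG went the other way, at 276 members (37.8%) against 46.5% (45.8%), and was less common at divergent promoters in all 5. Little separated divergent from other promoters for the E-box CACGTG, 22.3% against 21.5% (21.6%), and the TATA box TATAAA, 14.4% in both (14.4%), with the TATA box less common at divergent promoters in all 5 GC groups. CRE TGACGTCA was at 5.61% against 4.23% (4.35%), AP-1 TGANTCA at 10.5% against 12.8% (12.7%) and the ISRE core at 4.92% against 3.67% (3.78%). The core of the wider ISRE holds the stricter ISRE core, and a match is only an occurrence of these letters.

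**Figure D5:**
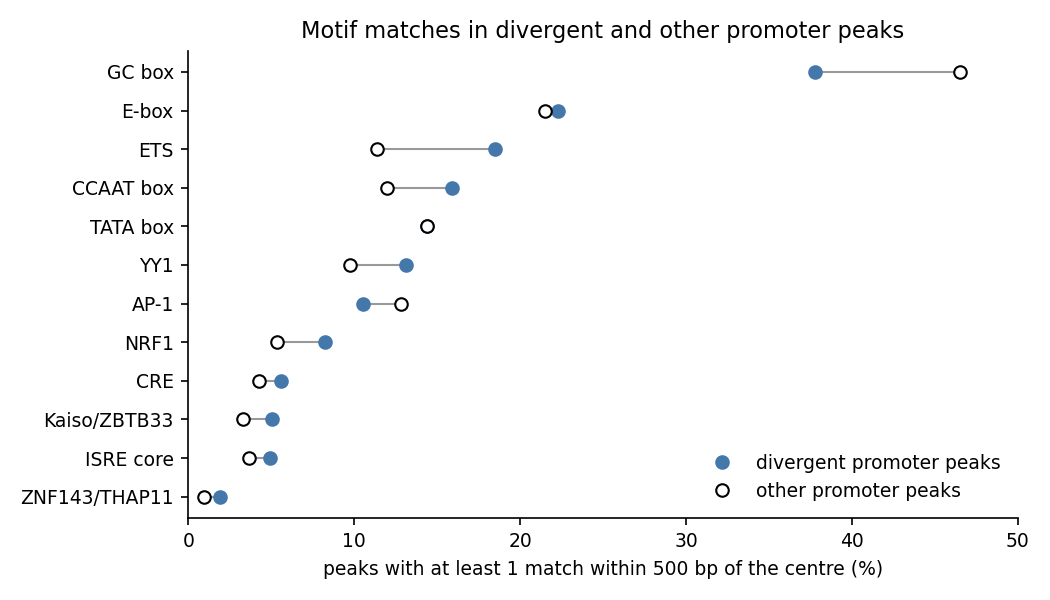
Share of peaks with at least 1 match within 500 bp of the centre in percent (x axis) for 12 motifs (y axis), at the 731 divergent promoter peaks (filled) and the 8010 other promoter peaks (open). ETS has the widest gap in favour of divergent promoters (18.5% against 11.4%), and the GC box the widest in the other direction (37.8% against 46.5%).

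Matches crowded into the stretch between the starts. Per kb of sequence, the CCAAT box was found 0.717 times between the starts and 0.099 times elsewhere in the windows, ETS 0.587 and 0.141 times, Kaiso 0.328 and 0.0293 times, NRF1 0.268 and 0.0618 times, and CRE 0.216 and 0.0276 times. At promoters with 1 coding gene, the 130 bp before the start, equal to the median spacing of the pairs, held 0.590 CCAAT boxes, 0.423 ETS, 0.178 Kaiso, 0.199 NRF1 and 0.227 CRE matches per kb, so that CRE alone of these 5 was not more frequent between divergent starts. Elsewhere in the windows of these 1-gene promoters the rates were 0.0886, 0.0801, 0.0289, 0.0384 and 0.0234 in the same order. Matches thus crowded before single starts as well. The GC box was found 1.87 times per kb between divergent starts and 2.96 times per kb before single starts. YY1 matches were not concentrated there, at 0.0950 per kb between the starts and 0.163 elsewhere, nor were those of the ISRE core, at 0.0259 and 0.0553.

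Members with a Kaiso match had a control median of 6.34 and those without one 5.78, with median differences of -0.87 and -0.73. At other promoters the control medians were 5.90 and 5.53 and the differences -0.80 and -0.76. Among the 37 members with a match were SNX5/MGME1 at 7.63, TRIM66/RPL27A at 7.13 and SKA3/MRPL57 at 6.94 in the control. ETS matches went with little change in level, with control medians of 5.86 with and 5.78 without a match, and median differences of -0.67 and -0.75. At other promoters these medians were -0.73 and -0.77.

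The annotation limits how many of these pairs are pairs of major starts. Both canonical transcript starts lay within 1000 bp of the centre at 483 members (66.1%). A readthrough gene was in the pair at 38 members and a gene without a name at 34, and more than 2 coding genes lay near the centre at 73. Members lay on 23 chromosomes. Chromosome 11 held 58 of them, 11.9% of its promoter peaks, and chromosome 1 held 65, or 7.09%.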

How the data were processed

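H3K27ac was measured by ChIP-seq in 2 IFN-β and 2 control libraries with 1 input library. Per the submitters' processing notes, reads were handled with bcl2fastq 2.17, fastp 0.19.3, Bowtie2, SAMtools, MACS2, DiffBind and DESeq2 on GRCh38. The log2 signal columns of the deposited table are the authors' means of normalized reads for all 4 H3K27ac libraries together and for each group, scaled by DiffBind to library size. The table also holds the authors' fold-changes, p-values and FDR values, which were not used. The values used are pooled over libraries, so no test, error between libraries or interval could be computed, and read counts per peak are unknown.

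The difference was taken as the IFN-β minus the control log2 value. Genes came from GENCODE release 44 (protein-coding and lncRNA gene records), and peaks, genes and sequences were joined on GRCh38. Peaks were classed within 1000 bp of starts, and GC content and motifs were computed within 500 bp of each centre with Python 3.11.15, numpy 2.4.6, pandas 2.3.3, pysam 0.24.0 and samtools 1.23.1. Figures were drawn with matplotlib 3.10.9. The classes and motif counts were tested on simulated data. A low-signal filter of a mean log2 signal of at least 5, taken over both groups, was an alternative.

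The members, the gene lists, the motifs and the alternatives were chosen with earlier results of these data known. Named were all pairs with a listed interferon-stimulated gene, the 6 highest by control signal, the 6 highest and 6 lowest by difference among peaks with a mean log2 signal of at least 5, and the 2 with the highest control signal in each other list. The 3 remaining members above 0, the members at the lowest value of the table, the pairs with other starts, TBC1D10B/MYL11, NTHL1/TSC2, PSMA1/PDE3B, PSMA2/MRPL32 and PSMD10/ATG4A were named after their values were seen. One pair that the rule would name is not reported here. Alternatives changed the starts, the distance, the signal minimum, the peak width, the centring, the fold, the chromosomes, the GC content, the sequence window and the pairs included.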

Additional observations from a re-analysis of the deposited data

How the results depend on the processing

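With the starts of all protein-coding transcripts there were 1242 divergent promoter peaks instead of 731, of which 194 instead of 105 were more than 2-fold lower and 13 instead of 7 above 0. These were 15.6% and 1.05% of the members, against 18.3% and 2.71% of other promoters. The gap to other promoters in the median IFN-β signal was 0.36 instead of 0.25. With canonical starts, added after the data were seen, that gap was 0.36 too. Among peaks with a mean log2 signal of at least 5, the gap fell to 0.02 in the control and 0.08 after IFN-β. There 69 members (13.0%) were more than 2-fold lower, against 15.8% of other promoters, and 4 (0.753%) above 0, against 0.593%. With differences centred on the median of all peaks, the members had a median of -0.04, 1 was more than 2-fold lower and 303 were above 0. Above 0 were then 41.5% of members, 38.5% of other promoters and 49.1% of all peaks. More than 2-fold lower were 0.137% of members and 0.749% of other promoters. A limit of 1.5-fold gave 544 lower members (74.4%), against 73.7% of other promoters. The smaller share of members seen at 2-fold was thus absent at 1.5-fold. Without the interferon pairs, a setting also added after the data were seen, 3 members (0.413%) were above 0. Of other promoters, from which none were left out, 2.2% were. In the lowest GC group the median difference of divergent minus other promoters was -0.015, where it was 0.03 over all. The control gap was 0.40 in the second GC group and 0.38 in the fourth, and the IFN-β gap 0.44 in the second. Within 250 bp, the ETS share differed by 3.90 percentage points, where it was 7.07 within 500 bp. The cause of these shifts was not tested. No paired analysis was possible because the values used are pooled over the libraries of each group, and for the same reason leaving out each library in turn was not run.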
